A study of Arabidopsis thaliana with 6 samples.

Results

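The loci described here are 262 short small RNA (sRNA) loci of Arabidopsis thaliana. They are the loci that the deposited table names as cluster 5 and that are shorter than 333 bp, out of 1633 loci listed in all. The meaning of the cluster number is not given in the sources used here, so it serves only as a name. Small RNA was sequenced from inflorescences of ndx1-4 plants and of Col-0 plants, all 5 weeks old, with 3 libraries per genotype. The ndx1-4 line carries a T-DNA insertion in the NDX gene in the Col-0 background, so 1 mutant allele stands for loss of NDX, and Col-0 is the unmutated wild type. Each library was made from RNA pooled over several flowering tissues, no other treatment was given, and the 3 libraries of a genotype are described as biological replicates. Neither the NDX gene nor marker genes of the inflorescence are among the listed loci, so the genotype and the tissue could not be checked in these counts.

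Most plant sRNA loci give rise to short interfering RNAs of the RNA-directed DNA methylation pathway. In that pathway RNA polymerase IV makes a precursor, RDR2 makes it double-stranded, DCL3 cuts it, and ARGONAUTE proteins such as AGO4 guide the methyltransferase DRM2 to transcripts of RNA polymerase V. Transposon remnants, tandem repeats and promoter-proximal repeats are its usual targets, and flowers are rich in such RNAs. NDX is a plant homeodomain protein known for its action on the antisense transcript of the flowering repressor FLC and for binding the Polycomb protein RING1A. The table counts reads per locus without separating read sizes, so the kind of small RNA made at each locus was not analysed here.

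The sequences of 16 of these loci show what the counts below refer to. They were read from the RefSeq genome TAIR10.1 on the plus strand, 5′ to 3′. Capitals mark bases that lie inside a 21-nt stretch found at least once more in the nuclear genome, on either strand, so a read from capitals can match more than 1 place. The first set holds 4 loci with 0 or 1 counts over the 3 Col-0 libraries. They are shown because they had the highest fold changes among loci with means of 50 or more normalised counts, a term defined below. Almost all of their sequence occurs once in the genome.
chr1:5091759-5091918: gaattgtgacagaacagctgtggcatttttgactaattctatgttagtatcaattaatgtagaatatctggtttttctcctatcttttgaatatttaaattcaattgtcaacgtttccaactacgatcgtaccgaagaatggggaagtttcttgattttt
chr5:17989388-17989520: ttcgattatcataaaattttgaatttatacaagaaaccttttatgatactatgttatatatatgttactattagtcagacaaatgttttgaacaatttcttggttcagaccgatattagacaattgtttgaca
chr3:9848192-9848400: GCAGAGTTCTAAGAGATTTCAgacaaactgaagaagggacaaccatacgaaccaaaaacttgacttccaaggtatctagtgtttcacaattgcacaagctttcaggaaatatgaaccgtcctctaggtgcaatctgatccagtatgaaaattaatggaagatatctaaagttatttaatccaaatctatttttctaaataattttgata
chr3:16755026-16755257: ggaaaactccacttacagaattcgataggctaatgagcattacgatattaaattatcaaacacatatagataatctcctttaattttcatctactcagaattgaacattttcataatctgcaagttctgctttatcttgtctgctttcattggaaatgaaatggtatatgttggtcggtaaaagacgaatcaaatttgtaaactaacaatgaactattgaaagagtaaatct

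The second set holds the 3 loci with the lowest fold changes under the same limit of 50 normalised counts. They had 0 or 1 counts over the 3 ndx1-4 libraries.
chr1:18948305-18948479: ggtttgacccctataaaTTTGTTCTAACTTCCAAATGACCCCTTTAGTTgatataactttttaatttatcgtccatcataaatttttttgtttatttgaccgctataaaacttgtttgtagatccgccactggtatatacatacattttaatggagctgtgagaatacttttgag
chr1:9453996-9454147: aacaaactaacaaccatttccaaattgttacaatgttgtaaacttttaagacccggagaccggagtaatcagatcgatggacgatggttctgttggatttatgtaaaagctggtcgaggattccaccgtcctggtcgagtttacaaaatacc
chr2:16742328-16742508: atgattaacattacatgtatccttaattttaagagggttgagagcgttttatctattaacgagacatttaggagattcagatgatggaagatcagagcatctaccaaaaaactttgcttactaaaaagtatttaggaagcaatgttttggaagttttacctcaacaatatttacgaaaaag

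The third set holds the most abundant of these loci, at chr5:17524204-17524401, with 2 loci of similar sequence that lie in coding exons of the F-box genes AT1G66490 and AT3G49520. Some of the stretches in capitals are shared among the 3 loci.
chr5:17524204-17524401: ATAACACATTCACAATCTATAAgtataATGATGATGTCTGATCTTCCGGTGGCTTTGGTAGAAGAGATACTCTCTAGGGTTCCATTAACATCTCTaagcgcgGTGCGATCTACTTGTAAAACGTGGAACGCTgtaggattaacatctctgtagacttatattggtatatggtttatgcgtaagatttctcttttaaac
chr1:24810392-24810551: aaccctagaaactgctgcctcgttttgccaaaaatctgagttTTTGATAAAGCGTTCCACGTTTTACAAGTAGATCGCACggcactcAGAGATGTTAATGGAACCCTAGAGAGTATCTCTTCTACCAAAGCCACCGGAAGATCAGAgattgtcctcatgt
chr3:18359632-18359786: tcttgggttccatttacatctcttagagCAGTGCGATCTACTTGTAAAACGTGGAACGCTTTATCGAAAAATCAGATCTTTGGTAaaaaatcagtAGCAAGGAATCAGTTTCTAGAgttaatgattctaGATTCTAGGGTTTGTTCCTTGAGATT

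The fourth set is a repeat family of 5 loci, 1 of which lies downstream of MEA, shown because almost all of its sequence is repeated. It was chosen after its values were seen.
chr1:424217-424353: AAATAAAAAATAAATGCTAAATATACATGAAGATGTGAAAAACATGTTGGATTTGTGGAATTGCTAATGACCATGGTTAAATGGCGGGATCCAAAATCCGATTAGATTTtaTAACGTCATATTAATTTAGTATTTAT
chr1:550163-550345: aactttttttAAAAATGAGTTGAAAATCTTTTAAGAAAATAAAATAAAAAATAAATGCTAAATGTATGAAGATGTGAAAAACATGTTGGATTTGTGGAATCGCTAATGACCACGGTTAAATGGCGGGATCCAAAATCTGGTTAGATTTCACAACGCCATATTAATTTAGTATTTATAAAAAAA
chr1:792083-792209: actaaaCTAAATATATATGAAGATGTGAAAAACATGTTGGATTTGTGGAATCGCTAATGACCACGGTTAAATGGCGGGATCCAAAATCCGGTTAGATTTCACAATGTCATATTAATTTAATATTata
chr1:1289206-1289395: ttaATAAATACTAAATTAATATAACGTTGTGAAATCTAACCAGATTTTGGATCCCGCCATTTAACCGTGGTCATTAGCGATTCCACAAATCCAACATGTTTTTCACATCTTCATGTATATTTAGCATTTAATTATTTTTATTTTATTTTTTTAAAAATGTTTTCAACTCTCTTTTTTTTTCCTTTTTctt
chr5:25860117-25860233: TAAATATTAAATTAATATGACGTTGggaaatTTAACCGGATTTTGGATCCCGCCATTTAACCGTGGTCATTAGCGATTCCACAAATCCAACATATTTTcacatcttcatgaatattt

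The last sequence is the shortest of the loci, 37 bp that overlap the tRNA gene AT4G14345.
chr4:8255690-8255726: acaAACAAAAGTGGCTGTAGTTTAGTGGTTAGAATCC

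The deposited table holds only loci that the authors' DESeq2 analysis had called different between the genotypes, with a largest adjusted p of 0.04999. Every test below is therefore a second test of a selected list and describes the size and direction of differences, not how common they are. The listed loci held between 2162920 and 2935774 counts in the ndx1-4 libraries and between 2276389 and 2553018 in the Col-0 libraries, while loci that are not listed were not analysed here. These sums are not the depth of the libraries. Counts were divided by the size factors of the authors' full table, recovered as described under processing, and are called normalised counts.

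Short cluster 5 loci were mostly higher in ndx1-4 flowers. In quasi-likelihood tests by edgeR, adjusted by Benjamini and Hochberg's method over all listed loci, 231 of the 261 loci tested were higher in ndx1-4 and 30 were lower at an adjusted p under 0.05. Among all 1626 listed loci tested, 39.2% were higher and 60.8% were lower, and all of them (100%) passed in either direction because of the selection. The median log2 fold change of the short loci was 0.71 (quartiles 0.46 and 1.21), against -0.32 over all listed loci. Cluster 5 loci of 333 bp or more had a median log2 fold change of 0.43, with 184 of 265 higher. Cluster 4 loci had a median of 0.94, with 123 of 146 tested higher.

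By library, the 262 loci summed to 68685, 66590 and 64318 normalised counts in ndx1-4 and to 41062, 41487 and 42234 in Col-0. The means were 66531 ± 2184 in ndx1-4 and 41595 ± 593 in Col-0 (SD, n = 3 each), and the genotypes did not overlap. As a share of all listed counts, which no scaling between libraries enters, the loci held 3.03 ± 0.182% in ndx1-4 and 1.49 ± 0.0191% in Col-0 (SD, n = 3 each). That share also moves with the listed loci that were lower in ndx1-4. The 31 loci with lower counts in ndx1-4 summed to 2840 ± 156 normalised counts there and to 6221 ± 262 in Col-0 (SD, n = 3 each).

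**Figure D1:**
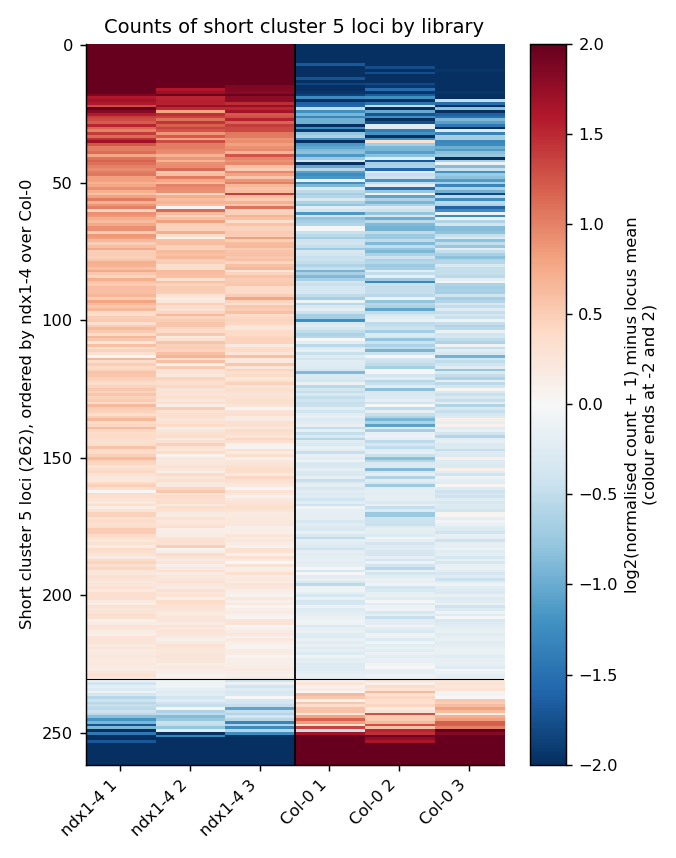
Each row is 1 of the 262 loci and each column 1 library, ndx1-4 on the left and Col-0 on the right. Colour gives log2(normalised count + 1) minus the locus mean, and rows run by ndx1-4 over Col-0. The upper 231 rows are higher in ndx1-4, and the 31 rows under the line are lower.

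The libraries of the genotypes did not overlap at 258 of the 261 loci tested, 229 higher and 29 lower in ndx1-4, beside 97.7% of all listed loci tested. The exceptions lay at chr2:1878608-1878908, chr2:4826028-4826230 and chr4:7063912-7063998, and are named after their values were seen. The 1 locus that was not tested, chr5:7806708-7806860, had 0, 4 and 2 counts in ndx1-4 and 2, 10 and 16 in Col-0. Where a genotype averaged 50 or more normalised counts, the median coefficient of variation between replicates was 7.71% in ndx1-4 and 9.63% in Col-0. Loci with little spread between replicates pass the authors' threshold more easily, so the list itself favours low values here.

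Differences of more than 1.5-fold were found at 158 loci higher and 25 lower, where 22.8% and 11.3% of all listed loci tested passed the same limits. Above 4-fold, 37 of the 261 loci tested were higher and 13 lower, against 88 and 32 of the 1626 listed loci tested. Among cluster 4 loci the numbers were 29 and 8 of 146 tested, and among long cluster 5 loci 16 and 9 of 265. Fold size ran against abundance. The 73 loci higher by up to 1.5-fold had a median of 278 normalised counts over the 6 libraries, and the 37 higher by more than 4-fold had a median of 90.5. A locus with few counts passes the authors' threshold only with a large difference, so the list itself builds in part of this relation.

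**Figure D2:**
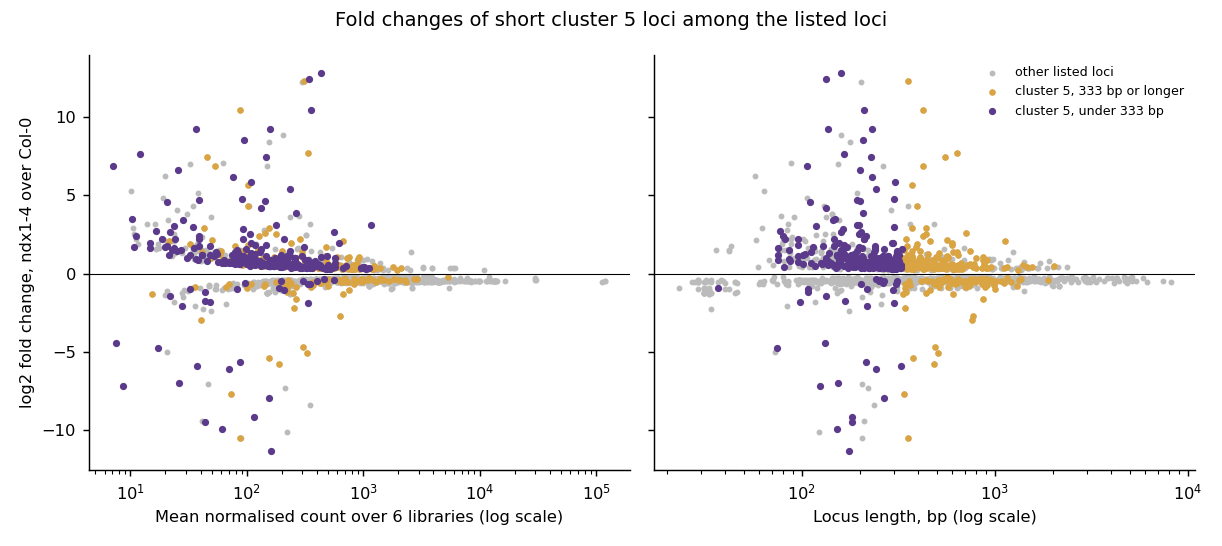
Each point is a listed locus that was tested. The vertical axis is its log2 fold change, with ndx1-4 over Col-0, against its mean normalised count (left) or its length in bp (right) on log-scaled horizontal axes. The short cluster 5 loci lie mostly above 0 with a median of 0.71. Fitted values of loci with 0 counts throughout 1 genotype depend on the prior count of the fit.

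A set of loci was on in one genotype and nearly or wholly silent in the other. In ndx1-4, 11 short cluster 5 loci had no more than 3 counts in any library, and 4 of them had 0 in all 3. In Col-0, 13 loci had no more than 3 counts in any library, and 5 had 0 in all 3. These 24 loci are 9.16% of the short cluster 5 loci, while 51 of 1633 listed loci (3.12%) had such counts in either genotype. Among cluster 4 loci the number was 18 of 150 (12%), and among long cluster 5 loci 6 of 265 (2.26%).

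The highest fold change of all the short cluster 5 loci lay in an intron of AT1G14780, a gene annotated as a MAC/Perforin domain protein, at chr1:5091759-5091918. This locus had 1083, 1211 and 806 counts in the ndx1-4 libraries and 0 in each Col-0 library. Against a floor of 3 counts per library it was at least 246-fold higher in ndx1-4 (adjusted p = 2.56e-08, edgeR). None of its 21-nt stretches occurs elsewhere in the nuclear genome, as its lower-case sequence above shows.

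The locus chr5:17989388-17989520, 50 bp downstream of the methyltransferase-like gene AT5G44590, had 899, 949 and 592 counts in ndx1-4 and 0 in each Col-0 library. It was at least 193-fold higher in ndx1-4 (adjusted p = 6.44e-08, edgeR). Its GC content was 24.8%, where the median over the 262 loci was 31.9%.

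A locus 228 bp upstream of MEF14, a mitochondrial RNA editing factor, overlaps the transcribed pseudogene AT3G26775 at chr3:9848192-9848400. It had 878, 993 and 653 counts in ndx1-4 and 0, 1 and 0 in Col-0. The ratio of total counts, each divided by the summed size factors of its genotype, was 1811. Its exact 95% counting interval ran from 325 to 71541. Such intervals cover counting error only.

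The noncoding RNA gene AT3G45638 holds the locus chr3:16755026-16755257. Its counts were 397, 405 and 310 in ndx1-4 and 0, 1 and 0 in Col-0. The ratio of totals, scaled in the same way, was 798 with a counting interval from 143 to 31534. The other 2 of the 6 highest fold changes, among loci with means of 50 or more normalised counts, overlapped coding exons. In AT3G23633, an F-box associated gene, chr3:8497008-8497214 had 243, 281 and 160 counts in ndx1-4 and 0, 0 and 1 in Col-0. In AT5G40020, a thaumatin-family gene of the pathogenesis-related type, chr5:16023566-16023792 had 401, 403 and 241 counts in ndx1-4 and 1, 1 and 2 in Col-0.

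The opposite extreme overlapped a coding exon of DEG6, a putative DegP protease gene, at chr1:18948305-18948479, with 110 of its 175 bases coding. It had 0 counts in each ndx1-4 library and 268, 277 and 270 in Col-0, at least 124-fold lower in ndx1-4 (adjusted p = 1.67e-07, edgeR). The 3 Col-0 libraries differed little from one another there. Of its 175 bases, 32 lie in a repeated 21-nt stretch.

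A second locus with no ndx1-4 counts, chr1:9453996-9454147, lies 1130 bp downstream of AT1G27210. It had 94, 103 and 114 counts in Col-0 and was at least 47.0-fold lower in ndx1-4 (adjusted p = 2.34e-06, edgeR). Upstream of the hydrolase-related gene AT2G40095, chr2:16742328-16742508 had 1, 0 and 0 counts in ndx1-4 and 217, 99 and 280 in Col-0. Its Col-0 libraries were the most uneven of these loci, at 230 ± 95.7 normalised counts (SD, n = 3).

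The locus chr1:23755301-23755565, in the transcribed pseudogene AT1G64035 near the serpin gene SRP3, had 0, 3 and 1 counts in ndx1-4 and 231, 290 and 258 in Col-0. At chr3:6988720-6988962, 619 bp upstream of the arginine methyltransferase gene PRMT6, the counts were 3, 3 and 1 in ndx1-4 and 118, 136 and 100 in Col-0. The last of the 6 lowest fold changes among loci with means of 50 or more normalised counts, chr1:12561476-12561689, 2394 bp downstream of the auxin response factor gene ARF22, had 4 counts in each ndx1-4 library and 149, 122 and 172 in Col-0. Its log2 fold change was -5.63 (SE 0.24, adjusted p = 9.55e-08, edgeR).

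**Figure D3:**
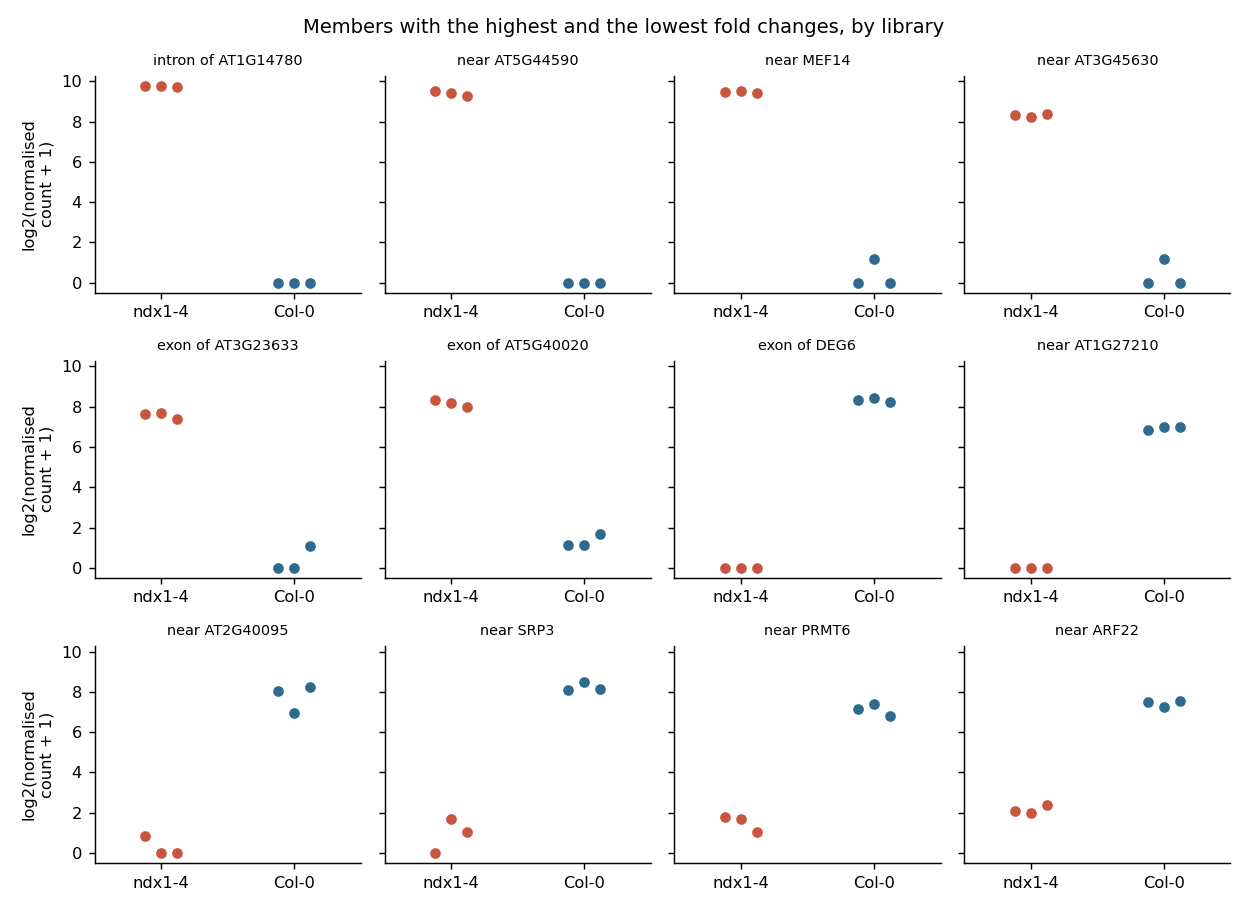
Each panel is 1 of the 12 loci with the highest or lowest fold changes among those with means of 50 or more normalised counts, and each point 1 library (ndx1-4 left, Col-0 right). The vertical axis is log2(normalised count + 1). The loci were taken from those called whose libraries did not overlap between genotypes, so the genotypes stand apart by that choice. The lower genotype had 0 to 4 counts per library.

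Other loci with no counts in 1 genotype were less abundant, and 3 of them are named after their values were seen. In ndx1-4, chr1:23735179-23735360 in AT1G63950 and chr5:24724791-24724914 in PXY, a receptor kinase gene of the vascular meristem, had 0 counts in every library, against 222 and 45 over the Col-0 libraries. Near PKS1, which encodes a phytochrome kinase substrate, chr2:856904-857040 had 258 counts over the ndx1-4 libraries and 0 in every Col-0 library.

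Most of the abundant loci differed by little. The most abundant, chr5:17524204-17524401, differed more, with 2720, 2886 and 1913 counts in ndx1-4 and 193, 211 and 231 in Col-0. Its normalised count was 2102 ± 84.7 in ndx1-4 and 248 ± 15.4 in Col-0 (SD, n = 3 each), a log2 fold change of 3.08 (SE 0.08, adjusted p = 5.12e-09, edgeR). The next 4 in abundance among those higher in ndx1-4 had log2 fold changes between 0.32 and 0.45. The loci at AT1G15010, CBL8 and XBAT32 did not pass with the scale moved downward (adjusted p between 0.114 and 0.341, edgeR). The 4 loci lay in an untranslated exon part of AT1G15010, and near CBL8, a calcium sensor gene, XBAT32, a ubiquitin ligase gene, and AGC2-1, a protein kinase gene.

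Near AGC2-1, chr3:9197601-9197824 had 1549, 1625 and 1010 counts in ndx1-4 and 730, 709 and 734 in Col-0. Its normalised count was 1165 ± 91.2 in ndx1-4 and 851 ± 41.5 in Col-0 (SD, n = 3 each), with no overlap. The 5 most abundant loci that were lower in ndx1-4 had log2 fold changes between -1.85 and -0.37. The largest of these differences was at chr1:1738879-1739180, with 99, 259 and 165 counts in ndx1-4 and 276, 526 and 555 in Col-0, a log2 fold change of -1.85 (SE 0.32, adjusted p = 0.000752, edgeR). The 3 at ARFB1A, AT1G50770 and AT3G42180 did not pass when TMM factors over the listed loci replaced the recovered scale.

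Some of the loci resemble one another in sequence. Aligned with one another over at least 50 bp at 75% identity or more, 60 of the 262 loci fell into 20 families. All members were higher in ndx1-4 in 16 families and all were lower in 2, while 2 families were mixed. This split was the same under each of the 4 other scales tried. The authors' threshold keeps out small differences, the ones whose sign a scale could turn. The split is to be read beside the 88.5% of all short cluster 5 loci called that were higher. In 2 pairs of loci with identical sequence the counts were identical in all 6 libraries. Reads that match several loci were thus counted at each, and members of a family are not independent measurements.

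The family of the most abundant locus was 1 of the mixed ones. In the coding exon of AT1G66490, chr1:24810392-24810551 had 1221, 1342 and 885 counts in ndx1-4 and 129, 133 and 124 in Col-0, a log2 fold change of 2.67 (SE 0.09). In the coding exon of AT3G49520, chr3:18359632-18359786 had 1247, 1327 and 908 counts in ndx1-4 and 223, 210 and 206 in Col-0, a log2 fold change of 1.96 (SE 0.09). Both genes encode F-box proteins, the substrate-binding parts of ubiquitin ligases. The 3 loci share stretches in capitals printed above, and reads from shared stretches cannot be assigned to 1 of them. The fourth member of the family is the locus upstream of PRMT6, which was nearly silent in ndx1-4.

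In the repeat family printed above, all 5 loci were higher in ndx1-4, with log2 fold changes between 0.50 and 1.09. The loci align with one another at 90.7 to 95.8% identity. The locus chr1:550163-550345, 961 bp downstream of the imprinted Polycomb gene MEA, had 203, 170 and 133 counts in ndx1-4 and 52, 48 and 78 in Col-0. The locus chr1:1289206-1289395, in an intron of AT1G04625, had 197, 172 and 138 counts in ndx1-4 and 53, 47 and 72 in Col-0. These counts are close to those near MEA although the 2 loci lie far apart, and 184 of 190 bases of this locus are in capitals above. The sequence near MEA has 35 near-identical copies in the nuclear genome, on 3 chromosomes. The region behind MEA is known to hold a tandem repeat array that is methylated through small RNAs, which the annotation used here does not mark.

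Other families were chosen after their values were seen. A set of 3 near-identical loci (99.2 to 100% identity) lay at chr1:3730130-3730411, chr1:17938897-17939146 and chr5:15229172-15229443, near AT1G11145, the gene GATB and AT5G38180. Their counts differed by at most a few reads, as at chr1:3730130-3730411 with 461, 476 and 301 in ndx1-4 and 159, 141 and 141 in Col-0. The log2 fold change at chr1:17938897-17939146 was 0.99 (SE 0.12). The 3 loci are not independent measurements.

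In 1 of the families lower in ndx1-4, the locus chr1:22975388-22975461 overlapped a coding exon of AT1G62170, a gene of the serpin family of protease inhibitors. This locus aligned over 60 bp at 95% identity with the locus near SRP3. Its counts were 0, 3 and 1 in ndx1-4 and 29, 24 and 32 in Col-0. In ndx1-4 these are the very counts of the locus near SRP3, which was far more abundant in Col-0. In the other such family the locus upstream of WAVE5, a gene of the actin-nucleating SCAR family, had 3, 1 and 0 counts in ndx1-4 and 69, 27 and 96 in Col-0. Its partner at chr5:17072281-17072497 had 25, 42 and 13 counts in ndx1-4 and 37, 27 and 48 in Col-0, a log2 fold change of -0.98 (SE 0.31).

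The second mixed family held 6 loci of lower identity, between 76.3 and 79.5%. Of these, 5 were higher in ndx1-4. Among them was chr4:7063912-7063998 in an intron of HAP2, the gamete fusion gene, where the libraries of the genotypes overlapped, as given above. Another, chr1:5359043-5359202, had 146, 187 and 104 counts in ndx1-4 and 41, 34 and 33 in Col-0. The sixth, chr1:18817435-18817676 near AT1G50770, was lower with a log2 fold change of -0.37 (SE 0.10).

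The locus behind MEA was also 1 of 2 short cluster 5 loci that stood in groups of at least 3 listed loci with gaps of at most 1 kb. The other was chr3:8690453-8690615, in an untranslated exon part of AT3G24065, a gene of the plant self-incompatibility S1 family. It had 223, 228 and 133 counts in ndx1-4 and 26, 14 and 17 in Col-0, a log2 fold change of 2.86 (SE 0.22).

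Next to a listed locus, direction could change at the shared boundary. There were 8 short cluster 5 loci that abut another listed locus, 1 base apart, and all 8 were higher in ndx1-4. Of these neighbours 5 belong to cluster 4, 2 to long cluster 5 loci and 1 to cluster 7. Among the 7 neighbours tested, 5 were lower in ndx1-4 and 2 were higher. Over all listed loci whose nearest listed locus abuts them, 425 of 442 (96.2%) had their neighbour's direction, but 331 of these were cluster 8 loci, all of which did. Among cluster 4 and long cluster 5 loci the number was 6 of 16, a count that holds the neighbours described here. These pairs were chosen after their values were seen.

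The neighbour that fell furthest lay upstream of AMSH1, a deubiquitinating enzyme gene. The short locus chr1:18048085-18048362 had 374, 397 and 294 counts in ndx1-4 and 126, 107 and 124 in Col-0, a log2 fold change of 1.10 (SE 0.11). The abutting cluster 4 locus, chr1:18047849-18048084, had 2, 3 and 2 counts in ndx1-4 and 587, 590 and 611 in Col-0. Summed over both loci, the normalised counts were 302 ± 11.0 in ndx1-4 and 840 ± 30.9 in Col-0 (SD, n = 3 each), so the pair as a whole was lower in ndx1-4.

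Upstream of BAM6, a beta-amylase gene, the short locus chr2:13717683-13717941 had 294, 312 and 227 counts in ndx1-4 and 101, 98 and 97 in Col-0. The long cluster 5 locus next to it, chr2:13717194-13717682, had 24, 30 and 26 counts in ndx1-4 and 436, 501 and 545 in Col-0, a log2 fold change of -4.68. Here too the pair summed to less in ndx1-4, 257 ± 9.42 against 695 ± 49.2 normalised counts in Col-0 (SD, n = 3 each).

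In the other opposite pairs the neighbour moved less. Beside the nearly Col-0-silent locus in AT3G45638, the cluster 4 locus chr3:16754650-16755025 had 87, 104 and 61 counts in ndx1-4 and 104, 90 and 108 in Col-0. Its log2 fold change was -0.75 (adjusted p = 0.00124, edgeR). The neighbours in AT1G53655 and upstream of AT3G24065 had log2 fold changes of -0.46 and -0.66. Scaled by column totals, these 3 neighbours kept their sign but did not pass (adjusted p between 0.0600 and 0.399, edgeR). The pair at AT3G45638 summed to 384 ± 12.1 normalised counts in ndx1-4 and 118 ± 6.02 in Col-0 (SD, n = 3 each). The pair at AT3G24065 summed to 329 ± 29.9 in ndx1-4 and 287 ± 7.46 in Col-0, and the pair at AT1G53655 to 722 ± 58.6 in ndx1-4 and 840 ± 41.2 in Col-0 (SD, n = 3 each). The sums of opposite pairs thus lay on either side of their Col-0 values. The 2 pairs that were higher together lay behind MEA and upstream of SPT, a transcription factor gene of carpel development. Near SPT, chr4:17413137-17413269 had 335, 363 and 209 counts in ndx1-4 and 10, 12 and 13 in Col-0.

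**Figure D4:**
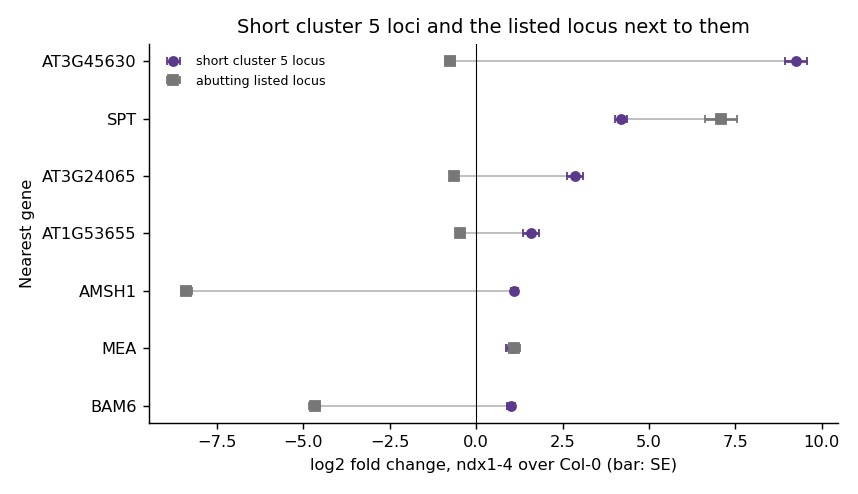
Rows are the 7 pairs of a short cluster 5 locus (circle) and the listed locus 1 base away (square) for which both were tested, named by the nearest gene. The horizontal axis gives log2 fold changes of ndx1-4 over Col-0, with their SE as bars. All 7 circles lie above 0, and 5 squares lie below it. The circle and square at MEA come from repeated sequence and are not independent measurements.

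Short cluster 5 loci lay close to genes. Each locus was counted once, in the first class that applied. Of the 262 loci, 25 touched a coding exon, 15 an untranslated exon part only and 11 an intron only. Next came 109 (41.6%) within 1 kb upstream of a protein-coding gene's start, then 31 within 1 kb downstream of an end. A locus near both a start and an end thus counts as upstream only. By the nearest gene alone, 128 loci lay upstream and 83 downstream. The other 71 (27.1%) lay farther away, against 55.6% of all listed loci. The median distance to a gene was 408 bp, against 1524 bp over all listed loci, and 24 (9.16%) lay in pericentromeric bins, against 44.1%. In these measures the short loci were close to long cluster 5 and cluster 4 loci, of which 26.0% and 22.0% lay farther than 1 kb from a gene. No difference in position was tested.

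Repeated sequence made up a small part of most of these loci. A median of 4.27% of the 21-nt stretches of a short cluster 5 locus occurred elsewhere in the nuclear genome, against 2.86% for long cluster 5 loci, 1.57% for cluster 4 loci and 57.5% over all listed loci. In 79 loci (30.2%) no stretch was repeated, and 100 loci (38.2%) had a copy of at least 50 bp at 90% identity, against 37.7% of long cluster 5 loci, 27.3% of cluster 4 loci and 67.1% of all listed loci. The median length was 207.5 bp, from 37 to 331 bp. Per 100 bp the median was 70.8 normalised counts, against 67.7 for long cluster 5 loci, 51.2 for cluster 4 loci and 118 over all listed loci. Inverted repeats with arms of at least 20 bp, as in hairpin precursors, were found in 2 loci.

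**Figure D5:**
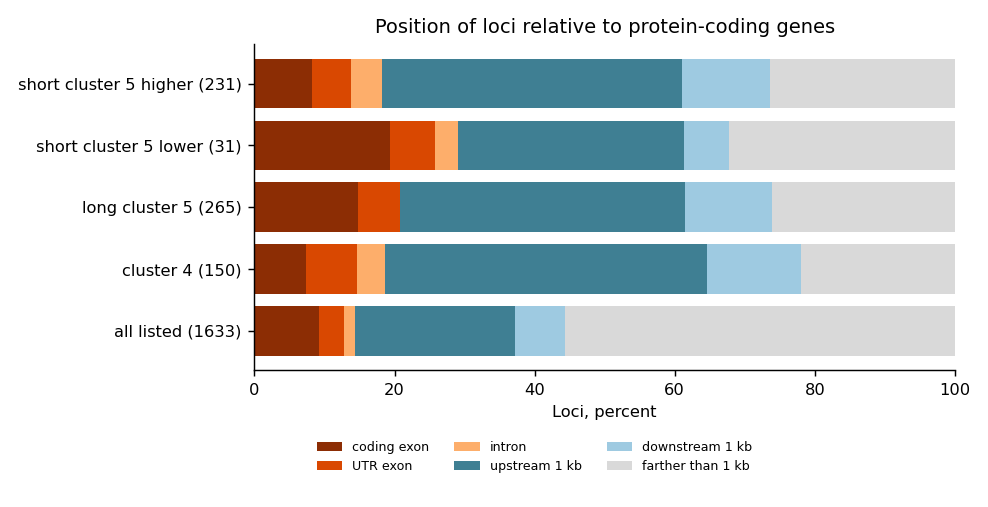
Each bar divides a set of loci by position relative to protein-coding genes, in percent of the set, with the number of loci in parentheses. A locus counts in the first class that applied, with upstream taken before downstream. Loci farther than 1 kb from a gene made up 26.4% of the short cluster 5 loci higher in ndx1-4, 32.3% of those lower and 55.6% of all listed loci.

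Higher and lower loci differed in some of these counts, but only 31 were lower. A coding exon was touched by 19 of 231 higher loci (8.23%) and by 6 of 31 lower loci (19.4%). By chromosome, 13 of 68 loci were lower on chromosome 1, 7 of 44 on chromosome 2, 3 of 50 on chromosome 3, 4 of 45 on chromosome 4 and 4 of 55 on chromosome 5.

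The 6 most abundant loci in coding exons were all higher in ndx1-4. Besides the F-box genes above, they lay in RR13, a B-type response regulator gene of cytokinin signalling, in the hydrolase gene AT1G56630, and in AT5G11565 and AT5G43755, which are annotated as reverse transcriptase-like. In RR13, chr2:11559083-11559285 had 753, 864 and 563 counts in ndx1-4 and 371, 401 and 444 in Col-0. Its normalised count was 609 ± 16.8 in ndx1-4 and 475 ± 27.4 in Col-0 (SD, n = 3 each).

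Genes of the methylation machinery were looked up next. None of 20 core genes of RNA-directed DNA methylation had one within 2 kb, and 2 of the 20, NRPE1 and DMS3, had any listed locus that near. Of 8 other genes of DNA methylation or demethylation, 1 had such a locus. This gene was ROS1, a DNA glycosylase that removes methylated cytosine, annotated here as DML1. The locus chr2:15309093-15309190, which overlaps its coding exon, had 25, 39 and 14 counts in ndx1-4 and 59, 50 and 84 in Col-0. It was lower in ndx1-4 by a log2 fold change of -1.79 (SE 0.27, adjusted p = 0.000416, edgeR), and 56.4% of its 21-nt stretches occur elsewhere. None of FWA, SDC, NDX, RING1A, RING1B, VAL1 and FLC had a short cluster 5 locus within 2 kb.

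Only 2 of the 262 loci overlapped a structural RNA or miRNA gene. The 37-bp locus overlapping the tRNA gene AT4G14345, printed above, had 151, 184 and 129 counts in ndx1-4 and 217, 181 and 230 in Col-0. Its log2 fold change was -0.91 (SE 0.11). Of its 37 bases, 34 are in capitals, and other tRNA genes can supply such reads. The locus chr5:16409738-16409871 in the miRNA gene AT5G06105 had 186, 182 and 141 counts in ndx1-4 and 68, 53 and 66 in Col-0, a log2 fold change of 0.97 (SE 0.14). It has no repeated stretch.

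Loci next to the length limit had these values. The 3 longest loci, of 331, 328 and 328 bp, had log2 fold changes of 1.58, 0.54 and -5.90. The 3 shortest cluster 5 loci left out, each of 333 bp, had 0.41, 1.01 and 0.56.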

How the data were processed

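The authors pooled RNA per replicate, trimmed adapters with cutadapt, kept small RNA sizes and counted reads at published sRNA loci with the sRNAnalyzer pipeline, in which a read can count at several loci, as identical counts of identical loci show. The deposited table gives counts per locus and library, the authors' log2 fold changes, and their DESeq2 adjusted p-values, by which it was filtered. Bowtie2, deepTools and TAIR10 are named in the submitters' processing notes.

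The authors' fold changes were used only to recover the 6 size factors of their full table, by least squares on 999 loci whose lowest count was 200 or more (median absolute residual 0.000335 on the log2 scale). Their p-values served only to check the filter. Counts were tested with edgeR 4.0.16 in R 4.3.3 (quasi-likelihood, genotype only, filterByExpr), which was tested on simulated data. Each locus was placed on RefSeq TAIR10.1, whose chromosomes match TAIR10, and compared with the genome by BLASTN and by 21-nt windows. A gene on either strand counts, since the table gives no strand. P-values set a difference against the spread between 3 pooled libraries per genotype, moderated over the listed loci tested. Spread between single plants was not measured. No libraries were duplicates, and no sample was left out.

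The members and gene lists were chosen with earlier results of these data known. Named loci are the 6 highest and 6 lowest fold changes and the 5 most abundant in each direction (means of 50 normalised counts or more, genotypes not overlapping), then the 6 most abundant in coding exons, those in structural RNA or miRNA genes, within 2 kb of listed genes, at the length limit, or in groups of at least 3 within 1 kb. Alternatives were other scales, DESeq2, limma-voom, other filters, thresholds and length limits, and leaving out libraries.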

Additional observations from a re-analysis of the deposited data

How the results depend on the processing

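Every short cluster 5 locus tested kept its sign under the 4 other scales, which move ndx1-4 against Col-0 by 0.23 (TMM), 0.24 (median-of-ratios), 0.34 (column totals) or -0.23 (downward) on the log2 scale, and the fitted values of loci near 0 in 1 genotype by less. The authors' threshold bounds the size of a listed difference from below, so kept signs under shifts this small are largely set by the selection. Calls were lost: 231, 231, 231 and 171 loci were called higher under these scales, and 23, 23, 21 and 30 lower. The median log2 fold change was 0.94, 0.95, 1.05 and 0.48 under them, and the loci above 1.5-fold higher numbered 224, 225, 231 and 112. With at least 10 counts in every library, which removes loci silent in 1 genotype, 17 loci were lower, 12 of them by more than 1.5-fold, and 91.9% of those called were higher. Without loci at or under 3 counts throughout 1 genotype, a choice made after seeing the data, these values were 19, 14 and 92.0%. Among loci without a near-identical copy 146 were higher and 15 lower, 12 by more than 1.5-fold. A length limit of 250 bp gave a median of 0.82. Leaving out 1 library gave 230 to 231 higher, 29 to 31 lower, 150 to 163 and 23 to 26 above 1.5-fold, medians of 0.65 to 0.74 and a share higher of 88.1% to 88.8%. Replicate numbers did not pair the libraries (correlations of deviations -0.0397, -0.0157 and -0.123), and a fit with a replicate block gave 231 higher, 30 lower, 159 and 25 above 1.5-fold, with a median of 0.71 and a share of 88.5%. DESeq2, limma-voom and 1 locus per sequence family (also chosen after seeing the data) stayed within 1.5 times each count. In 611 comparisons of 39 named loci with their main fit, none turned round and 17 did not pass. Most of these 17 were abundant loci with small differences under another scale. The comparisons include the main edgeR fit read at an adjusted p under 0.01, and the loci include the 3 of 333 bp outside the length limit. Size classes, strand and loci outside the list limit what the counts can show.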
